A study of Mus musculus with 12 samples.

Results

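Bone morphogenetic protein (BMP) target genes and the transcription factors Cdx2, Gata2, Dlx3 and Msx1 were followed across the germ cells and somatic cells of the embryonic mouse gonad. The 10 genes, of 12845 in the deposited tables, were Cdx2, Gata2, Dlx3, Msx1, Msx2, Id1, Id2, Id3, Smad6 and Smad7. Cdx2, Gata2, Dlx3 and Msx1 were selected on their rise in the female germ cells of these same libraries, so their values are given as a description with no test in any comparison. The other 6 were taken as known BMP targets. All 10 were present in both tables. The lowest third-highest value of any gene in the tables was 5.067 reads per 1000000 reads of a library (CPM), and Cdx2 and Dlx3 exceeded that level only in the female germ cell libraries. A gene that enters a table through 1 group has to differ between groups.

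The study compared primordial germ cells (PGCs) with the remaining gonadal cells at E13.5, in relation to hypertranscription, a raised RNA output per cell. Embryos were of the strain Oct4GFPxICR, from matings with Oct4GFP males, in which green fluorescent protein marks cells with activity of Oct4 (Pou5f1). Cells were sorted by flow cytometry into Oct4GFP(+) PGCs and Oct4GFP(-) soma, and synthetic ERCC RNA was spiked in by cell count. There were 4 groups of 3 libraries each, PGC and soma from male gonads and PGC and soma from female gonads. All 4 groups carry the reporter cross, none had another treatment, and the soma is the whole unlabelled gonad rather than a single cell type. The labels do not say whether replicates came from separate litters or how many embryos were pooled, so p-values measure the spread between these samples, which may be technical.

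BMP ligands bind pairs of type I and type II receptor kinases, which phosphorylate SMAD1, SMAD5 and SMAD9. These join SMAD4 in the nucleus and activate genes such as the Id, Msx and Dlx families, and also Smad6 and Smad7, whose products inhibit the pathway in return. In the mouse, BMP signals first induce PGCs in the early embryo, and later promote, together with retinoic acid, the entry of ovarian germ cells into meiosis. Testicular germ cells at the same age stop dividing and do not enter meiosis.

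Reads assigned to genes ranged from 6454322 in female PGC replicate 2 to 24791414 in male soma replicate 2, so 1 read was worth from 0.0403 to 0.155 CPM. The 5 germ cell markers Pou5f1, Ddx4, Dazl, Dppa3 and Sall4 summed to between 3170 and 3367 CPM in female PGCs and between 4286 and 4542 CPM in male PGCs. They summed to between 5.89 and 11.6 CPM in male soma and between 10.9 and 150.0 CPM in female soma, where replicates 1 and 2 stood apart from replicate 3. The 5 stromal markers stayed at or below 33.0 CPM in female PGCs and 46.0 CPM in male PGCs, against at least 7613 CPM in every soma library. Red cell markers in female soma summed to between 17460 and 29330 CPM, against between 3337 and 8509 CPM in male soma. In bulk samples of this kind, fewer cells of a type and less RNA per cell cannot be told apart.

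Sequence upstream of the start was given by RefSeq (GRCm38.p6) for 7 of the 10 genes, with a pair of starts for Gata2. The 250 bases before the start are shown for Cdx2, Gata2 (its downstream start) and Msx1, which are the picked genes with a window, and for Id2 and Id3, related genes that differed in how female PGCs compared with soma. Each is written 5′ to 3′ on the strand of its gene. Capitals mark short sequences known to be bound by SMAD proteins, on either strand. They are the letters GGCGCC, the variant GGAGCC and the SMAD-binding element GTCT.
Cdx2, chr5:147307250-147307499, minus strand: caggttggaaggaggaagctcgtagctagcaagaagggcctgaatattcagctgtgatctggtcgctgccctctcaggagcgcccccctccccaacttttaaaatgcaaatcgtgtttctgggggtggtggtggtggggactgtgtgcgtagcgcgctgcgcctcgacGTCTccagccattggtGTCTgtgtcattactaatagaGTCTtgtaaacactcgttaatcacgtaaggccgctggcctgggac
Gata2, chr6:88198414-88198663, plus strand: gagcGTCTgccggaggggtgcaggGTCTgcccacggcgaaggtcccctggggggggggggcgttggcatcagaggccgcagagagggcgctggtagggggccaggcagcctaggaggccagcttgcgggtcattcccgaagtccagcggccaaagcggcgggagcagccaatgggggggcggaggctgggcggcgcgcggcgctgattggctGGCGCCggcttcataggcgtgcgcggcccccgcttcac
Msx1, chr5:37824586-37824835, minus strand: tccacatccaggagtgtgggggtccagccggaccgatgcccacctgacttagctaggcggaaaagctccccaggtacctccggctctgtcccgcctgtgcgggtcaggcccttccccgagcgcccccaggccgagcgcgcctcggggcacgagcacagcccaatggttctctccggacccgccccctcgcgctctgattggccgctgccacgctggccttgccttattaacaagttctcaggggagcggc
Id2, chr12:25096093-25096342, minus strand: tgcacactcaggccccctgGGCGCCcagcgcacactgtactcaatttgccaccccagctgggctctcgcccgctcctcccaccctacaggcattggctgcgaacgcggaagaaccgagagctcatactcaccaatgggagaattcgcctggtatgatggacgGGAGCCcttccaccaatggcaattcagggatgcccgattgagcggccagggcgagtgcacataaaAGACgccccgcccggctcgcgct
Id3, chr4:136143572-136143821, plus strand: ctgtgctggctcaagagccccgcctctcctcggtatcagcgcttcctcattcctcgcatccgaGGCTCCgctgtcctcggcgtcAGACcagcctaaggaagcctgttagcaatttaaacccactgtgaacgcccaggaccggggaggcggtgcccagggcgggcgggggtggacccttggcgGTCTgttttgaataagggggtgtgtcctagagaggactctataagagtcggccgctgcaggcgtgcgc
Of the 7 genes with a window, 2 held GGCGCC, 4 held GGAGCC and 6 held GTCT on either strand, Msx1 being the gene without any GTCT. Among 32851 mouse promoter windows of the same length, 9.59% held GGCGCC, 26.0% held GGAGCC and 82.9% held GTCT. Those shares are per window, while the gene counts cover 8 windows, and Gata2 held GGCGCC only at its downstream start. The 8 windows had from 55.2% (Cdx2) to 74% GC (Gata2, downstream start), against a median of 52.4% over all windows, so the counts and shares are not like for like. The longer form known from BMP-responsive enhancers, GGCGNC then 5 bases then GTCT, was in none of the 7 genes and in 0.192% of all windows. Matches of different motifs were counted separately where they overlapped. A match here is a description of the letters in the window, and says nothing of binding.

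The caudal-type homeobox gene Cdx2, known for trophectoderm and for the posterior body axis, was read almost solely in female PGCs. Its levels there were 55.9, 41.7 and 71.4 CPM in replicates 1, 2 and 3, from 1248, 269 and 747 reads. Male PGCs held 0.191, 0.164 and 0 CPM, from 4, 4 and 0 reads, and the 3 male soma libraries held 0 reads, which allows up to 0.0573 CPM over that group. Female soma held 2.22, 1.38 and 0 CPM. The ratio of the mean CPM of female PGCs (56.3 ± 14.9, SD, n = 3) to that of male PGCs (0.118 ± 0.103) was 476, and every female PGC library lay above all 9 others.

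Dlx3, a distal-less homeobox gene known from skin, placenta and bone, followed nearly the same order. Its levels in female PGCs were 41.7, 41.2 and 69.1 CPM. Male PGCs held 0.526, 0.164 and 0.226 CPM and male soma held 0.437, 0.726 and 0.544 CPM. The 2 male groups overlapped, and both lay far below female PGCs. Female soma held 2.22, 1.84 and 0.254 CPM, with replicate 3 at the level of the male libraries. The ratio of mean CPM between female and male PGCs was 166.

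Msx1, a muscle segment homeobox gene that acts in limb and craniofacial tissue downstream of BMP, was the steadiest of the picked genes in female PGCs, at 149, 146 and 153 CPM (149 ± 3.40). Male PGCs held 1.43, 2.38 and 2.82 CPM and male soma 0.765, 3.11 and 3.48 CPM, again overlapping. Female soma held 13.4, 13.3 and 11.8 CPM, between the male libraries and female PGCs with no overlap on either side. The ratio of mean CPM was 67.4 against male PGCs and 11.6 against female soma.

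Gata2, a zinc finger factor known for blood stem cells and endothelium, differed from the other picked genes in its soma level. Female PGCs held 248, 257 and 305 CPM and female soma 210, 172 and 219 CPM, so the groups lay close without overlapping. Male soma held 104, 76.7 and 103 CPM. Male PGCs held only 3.01, 5.58 and 2.26 CPM and were the sole group with low Gata2. The ratio of mean CPM of female to male PGCs was 74.6, and that of female PGCs to female soma was 1.35. Gata2 is also read in endothelium, whose 5 measured markers summed to at most 3.72 CPM in female PGCs and to between 113.5 and 154.5 CPM in female soma. Their part in the soma level of Gata2 was not tested.

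**Figure D1:**
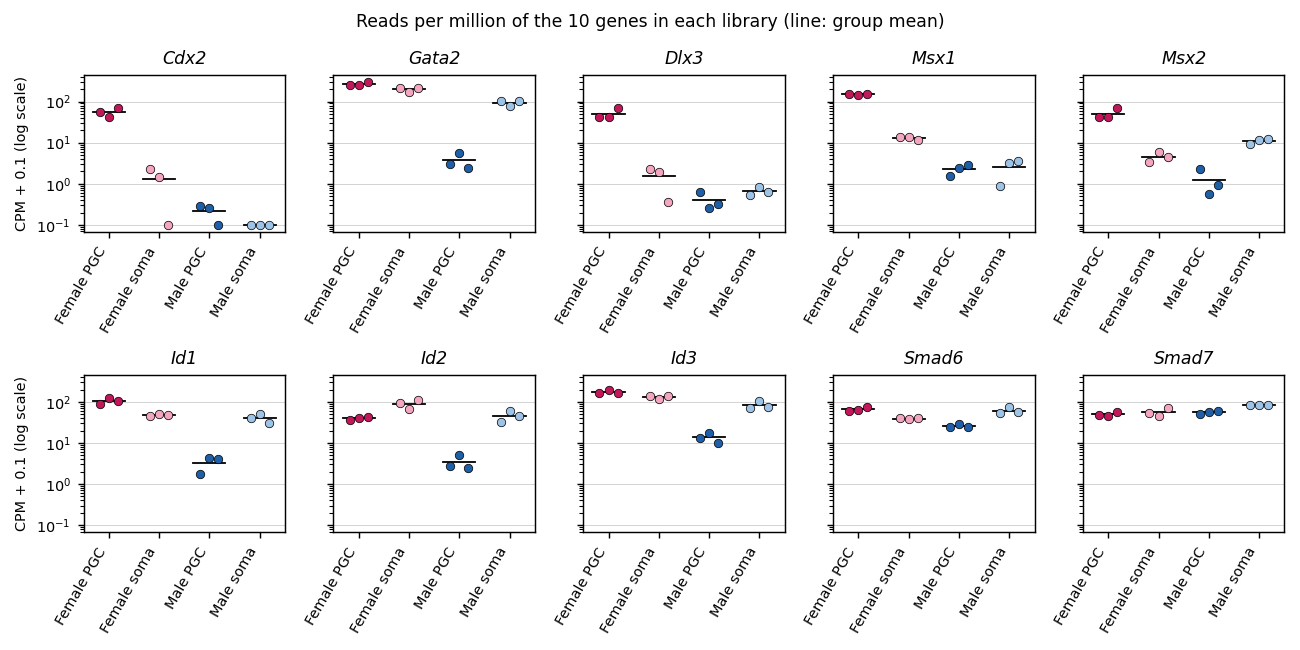
CPM, plus 0.1 and on a log scale, for each of the 10 genes; each point is 1 of the 3 libraries of a group and the line is the group mean. Female PGC points lie above all 9 other libraries for 7 of the 10 genes (19.5% of all genes), 4 of which were picked for that rise, while Id2 is highest in female soma and Smad7 in male soma.

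Among the 6 known BMP targets, 5 were higher and 0 were lower in female than in male PGCs (limma on the deposited log2 read depth values, adjusted p under 0.05), where 32.8% of all 12845 genes were called higher and 32.5% lower. Sex differences between germ cells were common in these libraries, so the sizes matter more than the count. For 8 of the 10 genes the ratio of mean CPM was at least 10, a size reached by 3.48% of genes with 20 or more reads over the 6 PGC libraries. The picked genes are among those 8 by choice. Differences on the deposited read depth scale were smaller than those of the reads themselves. For Msx2 and Id1, limma with voom on the recovered reads gave log2 differences of 5.69 ± 0.61 and 5.05 ± 0.40, beside 3.37 and 3.49 on that scale.

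Msx2, the paralog of Msx1 and a target of BMP in limb and skull, held 41.3, 41.5 and 68.6 CPM in female PGCs and 2.15, 0.451 and 0.847 CPM in male PGCs. The groups did not overlap, and the ratio of means was 43.9. On the read depth scale Msx2 was higher in female PGCs by 3.37 ± 0.22 (log2, SE; adjusted p 2.22e-08). Levels in soma were lower than in female PGCs in both sexes, at 3.33, 5.68 and 4.32 CPM in female soma and 9.07, 11.5 and 12.1 CPM in male soma.

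The Id genes encode helix-loop-helix proteins without a DNA-binding region, which hold E proteins away from DNA. Id1 held 88.5, 123 and 103 CPM in female PGCs against 1.67, 4.10 and 3.95 CPM in male PGCs, a ratio of means of 32.3. Its log2 difference was 3.49 ± 0.18 (adjusted p 4.13e-09). Id3 held 164, 198 and 166 CPM against 13.48, 17.4 and 9.82 CPM, with a log2 difference of 2.71 ± 0.14 (adjusted p 4.45e-09). Id2 held 36.4, 39.7 and 42.7 CPM against 2.72, 4.96 and 2.31 CPM, with a log2 difference of 2.36 ± 0.19 (adjusted p 1.8e-07). In all 3 genes every female PGC library lay above every male PGC library, as in 40.6% of all genes.

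The inhibitory SMAD genes behaved unlike each other. Smad6, which mainly restrains BMP receptors, held 59.2, 65.1 and 73.2 CPM in female PGCs and 24.95, 29.0 and 25.1 CPM in male PGCs. It was higher by 0.87 ± 0.10 (adjusted p 5.14e-06), a much smaller difference than those of the Id genes. Smad7, which restrains both BMP and TGF-beta receptors, held 47.5, 44.6 and 56.7 CPM in female PGCs and 49.9, 56.3 and 60.7 CPM in male PGCs. Those ranges overlapped, and the log2 difference of −0.24 ± 0.11 was not called (adjusted p 0.0808, 95% interval −0.48 to 0.01). Leaving out female soma replicate 2 or 3, which are in neither group but add to the shared spread, brought that adjusted p to 0.0379 or 0.0292, and leaving out female PGC replicate 3 gave −0.31 with an adjusted p of 0.0440.

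**Figure D2:**
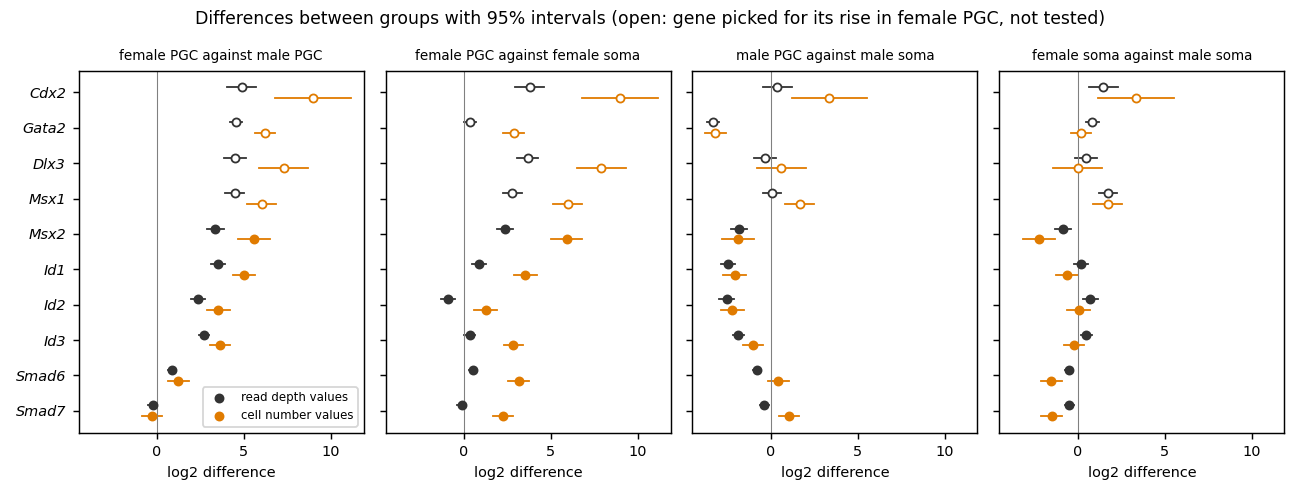
Log2 differences between groups with 95% intervals from limma, for read depth values (dark) and cell number values (orange); open points are the picked genes, which were not tested. Against male PGCs, 9 of the 10 genes lie to the right of 0 on both scales, and against female soma the cell number points lie to the right of the read depth points.

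Per cell, female PGCs held more of the same genes. The cell number table sets reads against the added ERCC RNA, and its median over all genes was nearly level between the sexes of PGC, at 5.94 ± 0.126 in female and 5.83 ± 0.0433 in male libraries (log2, SD, n = 3; two-sided exact permutation p 0.2, and the smallest p that 3 against 3 allows is 0.1). The log2 difference per cell was 5.57 ± 0.46 for Msx2, 5.001 ± 0.33 for Id1, 3.54 ± 0.33 for Id2, 3.63 ± 0.29 for Id3, 1.22 ± 0.31 for Smad6 and −0.26 ± 0.30 for Smad7. For the picked genes, as a description, it was 8.95 for Cdx2, 7.28 for Dlx3, 6.21 for Gata2 and 6.02 for Msx1. By the same rule 5 of the 6 known targets were called higher and 0 lower, against 24.3% and 17.7% of all genes. Part of the spread in that table is a shift shared by all genes of a library, which the fit treats as independent between genes. That shift was larger in soma, where library medians had an SD of 0.545 in male and 0.191 in female libraries. The fit also pools the spread of all 4 groups. P-values on that scale are therefore not reliable and are not given, and calls on it, here and below, serve as description only.

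Within the female gonad, the 6 known targets split by scale. On read depth values 4 were higher in female PGCs than in female soma and 1 was lower, where 38.7% of all genes were called higher and 42.3% lower. Msx2 was higher by 2.38 ± 0.22 (adjusted p 1.71e-07), Id1 by 0.87 ± 0.18 (adjusted p 0.000586) and Smad6 by 0.55 ± 0.10 (adjusted p 0.000185). Id3, at 138, 116 and 138 CPM in female soma, was higher by 0.34 ± 0.14 (adjusted p 0.0412), a call lost when either female PGC replicate 1, 2 or 3 or female soma replicate 1 or 2 was left out (adjusted p from 0.0526 to 0.145). Id2 held 93.7, 67.3 and 108 CPM in female soma, above every female PGC library, and was lower in female PGCs by read depth (−0.89 ± 0.19, adjusted p 0.000711) but higher by cell number (1.27 ± 0.33). Smad7, at 53.6, 44.6 and 70.2 CPM in female soma, was not called by read depth (−0.12 ± 0.11, adjusted p 0.33; −0.24 and adjusted p 0.0451 without female soma replicate 2) and was higher by cell number (2.27 ± 0.30).

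Per cell, 6 of the 6 known targets were called higher in female PGCs than in female soma and 0 lower, against 77.2% of all genes called higher and 11.5% lower. With female soma replicates 1 and 2 both left out, which leaves 1 library in that group, Id2 fell to 0.74. The median of all genes on that scale was 2.36 higher in female PGCs. Relative to that median, Msx2 at 5.91, Id1 at 3.54, Smad6 at 3.17 and Id3 at 2.86 stood above, and Smad7 at 2.27 and Id2 at 1.27 stood below. The picked genes, described without a test, had ratios of mean CPM against female soma of 46.9 for Cdx2, 35.2 for Dlx3, 11.6 for Msx1 and 1.35 for Gata2.

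In the male gonad the germ cells were the low group by read depth. On read depth values 6 of the 6 known targets were lower in male PGCs than in male soma and 0 were higher, where 43.7% of all genes were called lower and 39.1% higher. Id2 was lower by 2.52 ± 0.19 in log2 (−2.52, adjusted p 2.19e-08), and its mean CPM was 13.8-fold lower. Id1 differed by −2.42 ± 0.18 (adjusted p 2.01e-08), from 40.2, 50.3 and 29.8 CPM in male soma, which was 12.4-fold above male PGCs. Id3 differed by −1.85 ± 0.14 (adjusted p 2.66e-08) and Msx2 by −1.82 ± 0.22 (adjusted p 2.36e-06). By cell number 4 of the 6 were called lower, at −2.19 for Id2, −2.07 for Id1, −0.99 for Id3 and −1.86 for Msx2, and 1 was called higher. On that scale 8215 of 12845 genes were called higher and 2541 lower.

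The inhibitory SMAD genes of the male gonad depended on the scale. Smad6 differed by −0.80 ± 0.10 (adjusted p 4.77e-06) by read depth. Per cell it was at 0.42 and was not called. Smad7 differed by −0.35 ± 0.11 (adjusted p 0.0100) by read depth, by −0.11 with the medians of the libraries set equal (adjusted p 0.399), and by 1.04 per cell. The median of all genes per cell was 1.42 higher in male PGCs than in male soma.

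Of the picked genes, described without a test, Gata2 was 26.1-fold lower in male PGCs than in male soma by mean CPM, at a log2 difference of −3.33 by read depth. Dlx3 was at −0.33 and Msx1 at 0.06 by read depth, with overlapping libraries at means between 0.305 and 2.45 CPM, and at 0.62 and 1.68 per cell. Cdx2 was at 0.118 CPM or less in both groups. Supporting cell markers summed to between 45.1 and 95.3 CPM in male PGCs, against between 1012 and 1049 CPM in male soma and between 5.74 and 27.9 CPM in female PGCs. Markers of mesonephros and coelomic epithelium summed to between 53.1 and 80.3 CPM in male PGCs, between 7.56 and 10.5 CPM in female PGCs and between 24.6 and 52.7 CPM in male soma. The part of these markers in the levels of the 10 genes in male PGCs was not tested.

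The PGC-to-soma difference itself differed between the sexes for 5 of the 6 known targets, each in the female direction, with 0 in the other direction, where 27.9% and 28.9% of all genes were called in the respective directions. The female minus male difference in log2 was 4.20 ± 0.31 for Msx2 (adjusted p 1.74e-07), 3.29 ± 0.26 for Id1 (adjusted p 3.53e-07) and 2.19 ± 0.20 for Id3 (adjusted p 1.45e-06). It was 1.63 ± 0.27 for Id2 (adjusted p 0.00021) and 1.35 ± 0.14 for Smad6 (adjusted p 4.51e-06). For Smad7 it was 0.23 ± 0.16 (adjusted p 0.232, 95% interval −0.11 to 0.57), and 0.37 with an adjusted p of 0.0289 without female soma replicate 3. On cell number values it was 1.22 ± 0.42 for Smad7 and past the threshold. The median over all genes on that scale was 0.91, with 5498 of 12845 genes called higher.

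Between the somatic fractions the known targets went both ways. Of the 6 known targets, 2 were higher and 3 lower in female than in male soma by read depth, where 13.3% of all genes were called higher and 11.0% lower. Id2 was higher by 0.73 (adjusted p 0.0134) and Id3 by 0.51 (adjusted p 0.0191). Per cell Id2 was at 0.08 and Id3 at −0.22, where the median of all genes was −0.86. Both calls were lost without male soma replicate 1, at adjusted p 0.0720 and 0.0891, and that of Id3 also without male soma replicate 3 (adjusted p 0.0790) or female soma replicate 1 (adjusted p 0.0660). Smad6 differed by −0.48 (adjusted p 0.00346), Smad7 by −0.47 (adjusted p 0.00809) and Msx2 by −0.84 (adjusted p 0.0127). The call of Msx2 was lost without female soma replicate 1 (adjusted p 0.0569). With female soma replicates 1 and 2 both left out, Smad6 was at −0.44 (adjusted p 0.0898), Smad7 at −0.19 (adjusted p 0.370), Msx2 at −0.83 (adjusted p 0.118) and Id3 at 0.60 (adjusted p 0.0955), so none of these was called. Id1 was not called (0.20, adjusted p 0.495).

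The picked genes are again described without a test. The log2 difference between female and male soma was 0.86 by read depth and 0.19 per cell for Gata2, with no overlap of libraries in CPM. It was 1.73 by read depth for Msx1, also with no overlap. Per cell the median of all genes in that comparison was −0.86. Every female soma library lay above every male soma library for 22.7% of all genes. For Cdx2 and Dlx3 the libraries of the somas overlapped, since female soma replicate 3 held no Cdx2 read and little Dlx3.

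Female soma replicates 1 and 2 also held more germ cell RNA. Their germ cell marker sums were 2.77% and 4.55% of the female PGC mean, against 0.332% in replicate 3. Cdx2 stood at 3.95%, 2.45% and 0% of its female PGC mean in replicates 1, 2 and 3, and Dlx3 at 4.39%, 3.63% and 0.502%. Both genes, like the markers, were lowest in replicate 3, but from replicate 1 to replicate 2 they fell while the marker sum rose. These values rest on 20, 9 and 0 reads of Cdx2 and 20, 12 and 2 reads of Dlx3. The part of the markers in their soma levels was not tested. Msx1 stood at 9.02%, 8.95% and 7.93% and Msx2 at 6.61%, 11.2% and 8.57%, about the same in the library with few germ cell markers.

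**Figure D3:**
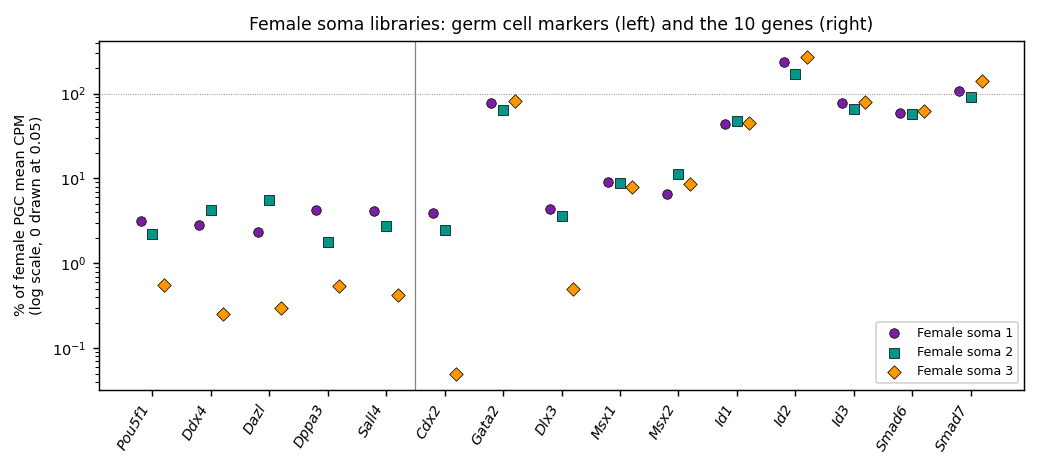
Level of 5 germ cell markers and of the 10 genes in each female soma library, as a percentage of the female PGC mean CPM on a log scale. Replicate 3 lies below replicates 1 and 2 for the germ cell markers, Cdx2 and Dlx3, and level with them for Msx1, at 7.93% against 9.02% and 8.95%.

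Levels of different genes were compared per kilobase of exon. In female PGCs Id3 (98.2 ± 10.5 CPM per kb) and Id1 (90.3 ± 15.02) came first and did not differ beyond their spread, followed by Gata2 (49.98 ± 5.67) and Msx1 (48.2 ± 1.10), which likewise did not. Cdx2 (24.9 ± 6.58), Smad6 (20.5 ± 2.20), Dlx3 (19.4 ± 6.13), Id2 (16.2 ± 1.29), Msx2 (15.4 ± 4.78) and Smad7 (10.97 ± 1.40) formed a lower run in which neighbours differed by less than the larger of their SDs. In male PGCs the order was another, with Smad7 first at 12.3 ± 1.21, then Smad6 at 8.22 ± 0.719 and Id3 at 7.57 ± 2.10 CPM per kb, which did not differ beyond their spread, and Cdx2 last at 0.0524. The 10 genes together took between 931 and 1108 CPM in female PGCs and at most 120.4 CPM in male PGCs. Those sums include Cdx2, Gata2, Dlx3 and Msx1, which were picked for their rise in female PGCs.

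Genes of the rest of the BMP pathway were called in both directions. Of 99 listed ligands, receptors, SMADs and modulators, secreted antagonists and other BMP-responsive transcription factors, 74 were measured, and between female and male PGCs 28 were higher, 20 lower and 26 not called by read depth. The shares over all genes to set beside these counts, and beside those of each list that follows, are 32.8% higher and 32.5% lower. Their median log2 difference was 0.14, beside 0.01 over all genes. The known targets among the 10 genes had a median of 2.53.

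Of 8 measured ligand genes, 2 were higher and 2 lower in female PGCs. Bmp2 held a mean of 10.2 CPM against 0.4997 CPM in male PGCs (1.97, adjusted p 4.36e-08), and Gdf10 5.38 against 0.412 CPM (1.85, adjusted p 8.61e-06). Bmp4 went the other way, at 0.985, 1.24 and 3.82 CPM in female against 31.7, 39.1 and 39.6 CPM in male PGCs (−2.77, adjusted p 2.86e-08), and Bmp7 held 21.2 against 62.4 CPM (−1.25, adjusted p 3.95e-07). By read depth all 8 were lower in female PGCs than in female soma, where 42.3% of all genes were, and by cell number 2 were higher and 5 lower. Bmp2 was at 28.3 CPM and Bmp4 at 23.5 CPM in female soma.

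Of 12 measured receptors and coreceptors, 6 were higher and 2 lower in female PGCs. The type I receptor Bmpr1a held 263 against 145 CPM (0.56, adjusted p 5.85e-05) and the type II receptor Bmpr2 74.8 against 26.3 CPM (1.01, adjusted p 6.22e-06). The coreceptor Eng held 21.8 against 1.42 CPM (2.38, adjusted p 2.65e-08) and Tgfbr3 1.95 against 19.5 CPM (−2.31, adjusted p 2.11e-08).

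Among 20 SMADs and modulators, 8 were higher and 8 lower. Smad9, which carries the BMP signal, held 19.5, 15.8 and 19.98 CPM in female PGCs and 0.382, 0.451 and 0.678 CPM in male PGCs (2.30, adjusted p 2.55e-08). It was the member of this list that differed most, while Smad1 (−0.20, adjusted p 0.115) and Smad5 (0.14, adjusted p 0.311), which act with it, were not called, and the shared partner Smad4 was lower (−0.71, adjusted p 4.5e-06). Smad1, Smad4 and Smad5 were named after their values were seen. Zfp423, a zinc finger partner of BMP SMADs, held 7.87 against 0.813 CPM (1.83, adjusted p 1.09e-07).

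Of 13 measured secreted antagonists, 6 were higher and 2 lower in female PGCs. That list also holds Bmp1, a protease known to cleave the antagonist Chordin, at 13.8 against 1.15 CPM (2.24, adjusted p 4.71e-08). Bmper held 7.09 against 0.0751 CPM (2.30, adjusted p 2.52e-08).

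Of 21 other BMP-responsive transcription factors, 6 were higher and 6 lower. Gata3, a relative of Gata2, held 8.73 against 0.302 CPM (1.74, adjusted p 4.21e-05), and Tbx2 8.83 against 2.52 CPM (1.121, adjusted p 1.52e-06). Hes1 held 3.276 against 25.4 CPM (−2.0003, adjusted p 1.3e-08) and Gata4, which is also a supporting cell marker, 4.20 against 7.52 CPM (−0.85, adjusted p 0.0312).

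**Figure D4:**
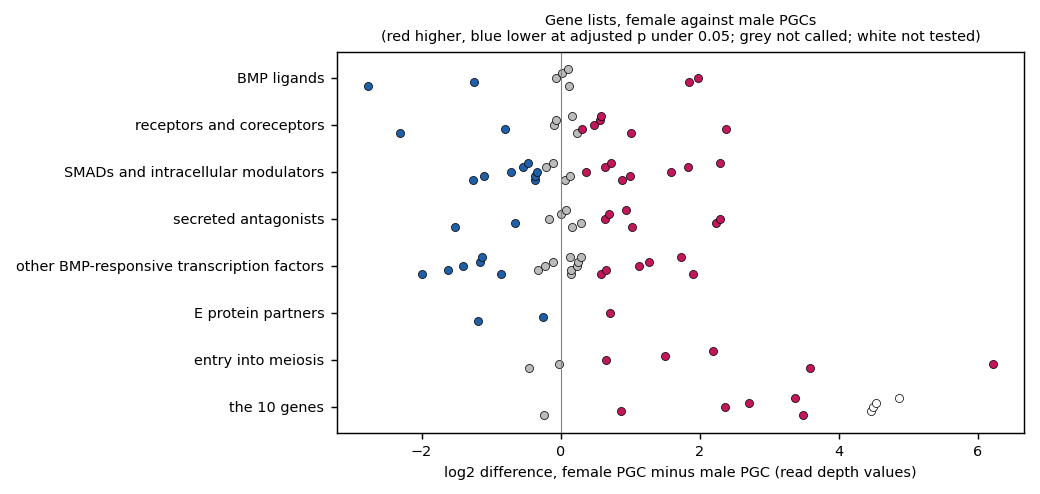
Log2 difference between female and male PGCs on read depth values for each measured gene of the 7 lists and for the 10 genes. Red points were called higher, blue lower, grey not called and white not tested; the pathway lists spread to both sides of 0, and 5 of the 6 tested genes in the bottom row lie at or above 0.87.

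The E proteins, which the Id proteins bind, did not share a direction. Tcf12 was higher in female PGCs, at 275 against 133 CPM (0.71, adjusted p 4.72e-06). Tcf4 was lower, at 23.8 against 65.0 CPM (−1.18, adjusted p 6.39e-08), and Tcf3, the most abundant of them, was slightly lower by read depth at 385 against 432 CPM (−0.25, adjusted p 0.00254).

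Of 7 measured genes of entry into meiosis, 5 were higher in female PGCs and 0 lower, beside 32.8% and 32.5% of all genes. Stra8, the factor that starts the meiotic programme, held 626, 616 and 448 CPM against 4.40, 0.943 and 4.18 CPM in male PGCs. Every male PGC library lay below 5.067 CPM, the lowest third-highest value of any gene, so Stra8 may have entered the tables through female PGCs. Its log2 difference of 6.22 is therefore given as a description, and the count of 5 includes it. The meiotic cohesin Rec8 differed by 3.58 (adjusted p 2.32e-07) and the synaptonemal protein Sycp3 by 2.20 (adjusted p 0.00615). Dazl, an RNA-binding protein that licenses germ cells, was not called (−0.02 ± 0.49, adjusted p 0.971). Zglp1, known in the mouse as a BMP-induced factor of oogenic fate and named after its values were seen, held 26.9 against 12.7 CPM (0.65, adjusted p 0.00212).

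Across the 12 libraries, the genes most like the mean pattern of the 4 picked genes, outside the 10 studied here, included Alpk3, Ankrd29, Itsn2, Rab6a, Ddb2, Smg9, Simc1, Pdpk1 and Dcaf5. Their Pearson r ran from 0.987 for Alpk3 to 0.977 for Dcaf5, on values that share 4 groups and so mostly reflect group means. Alpk3, an alpha-kinase gene, held 10.7 CPM in female and 0.334 CPM in male PGCs, and Ddb2, which recognises damaged DNA, 101.5 and 7.79 CPM. Of the known targets Msx2 had the highest r, 0.874 at rank 498, followed by Id1 (0.809) and Id3 (0.785), with Smad6 at 0.677, Id2 at 0.510 and Smad7 at −0.456.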

How the data were processed

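RNA from sorted PGCs and soma was sequenced in 12 libraries with a directional mRNA kit, per the labels. Reads were mapped to mm10 with TopHat2 2.0.9 and counted with HTSeq 0.6.1p1, and the notes also list limma 3.28.14, edgeR 3.14.0, DESeq2 1.12.3 and R 3.3.0 with no role, per the submitters' processing notes. The authors deposited 2 tables of log2 values for 12845 genes, normalized to read depth and to cell number. How the read depth values were transformed is not stated.

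The cell number values gave back whole reads (100% within 0.001 reads, after 0.5 added to each), from which CPM was computed. Floors of 3 reads cover counting error only. The intervals come from the limma fit and measure the spread between libraries. The test was limma 3.58.1 (lmFit, eBayes with trend) on the log2 values as deposited, with 4 group means over the 12 libraries, Benjamini-Hochberg over all genes, threshold 0.05. It was tested on simulated data. The prior degrees of freedom were 5.51 for the read depth table and infinite for the cell number table.

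Groups came from sample titles. Counts of replicates differed beyond sampling noise in every pair (chi-square of at least 5.45 for each degree of freedom). The members and lists were chosen with earlier results of these data known. The genes named from each list are the 3 with the highest mean CPM and the 3 with the largest called difference between female and male PGCs, those with the largest difference between PGC and soma, and a few chosen after their values were seen, as stated; some genes that this rule names are not reported here. Promoter windows came from RefSeq (GRCm38.p6), exon lengths from GENCODE vM21 (GRCm38). Python 3.11.15 with pandas 2.3.3, numpy 2.4.6 and matplotlib 3.10.9, and R 4.3.3, were used. Alternatives were voom, other pseudocounts, centring, a filter on low values, a fold rule, no variance trend, a replicate block and leaving out libraries.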

Additional observations from a re-analysis of the deposited data

Results flagged for a closer look

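The signed PGC minus soma difference was higher in the female than in the male gonad for 5 of the 6 known BMP targets, by an interaction term in limma on read depth values. Without regard to sign, it was larger in the male gonad for Id1 (−2.42 against 0.87), Id2 (−2.52 against −0.89), Id3 (−1.85 against 0.34) and Smad6 (−0.80 against 0.55). For Msx2 it was larger in the female gonad (2.38 against −1.825). The female minus male difference in log2 was 4.204 for Msx2, 3.294 for Id1, 2.193 for Id3, 1.626 for Id2 and 1.353 for Smad6. In the female gonad PGCs held more Msx2, Id1, Id3 and Smad6 than soma by read depth and less Id2. In the male gonad they held less of all 5 by read depth, while per cell Smad6 was at 0.42 and not called.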

How the results depend on the processing

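Of the calls between female and male PGCs, those of Msx2, Id1, Id2 and Id3 kept direction and side of the threshold under every alternative run, and Smad6 (0.87) did so except under the rule of a log2 difference of at least 1. The cell number table in place of the read depth table changed the sign of 5 gene results that were called on either scale. They were Id2 (1.273) and Smad7 (2.267) in female PGC against female soma and Smad6 (0.425) and Smad7 (1.044) in male PGC against male soma. The last was Id3 (−0.220) between the somas. By cell number Smad6 and Id3 were not called in those comparisons. Started from cell number, Id2 and Smad7 in female PGC against female soma were −0.892 and −0.122 by read depth, and Id2 was −0.927 with library medians set equal; the cause was not tested. Counts of pathway genes, of 74, also moved. With a log2 difference of at least 1, female against male PGC gave 14 higher and 11 lower, female PGC against female soma 8 higher, male PGC against male soma 6 higher, female against male soma 9 higher and 4 lower, and the interaction 14 higher. Leaving out the lowest 25% of genes tests fewer genes, and gave 18 higher between PGCs, 29 lower in female and 28 lower in male PGC against soma, 8 higher between somas and 17 higher in the interaction; on cell number values it gave 14 higher and 10 lower between PGCs and 9 lower in female PGC against soma. The cell number table gave 37 higher and 24 lower in female PGC against soma, 29 higher in male PGC against soma, 6 higher and 37 lower between somas, and 9 lower in the interaction. Started from cell number, female PGC against female soma had 15 higher and 51 lower by read depth, and 19 and 48 with library medians set equal. Between somas, log2(CPM + 0.1) gave 10 lower, leaving out 1 library gave from 10 to 19 lower, and leaving out both female soma replicates 1 and 2, chosen after seeing the data, gave 9 higher and 7 lower. Over all genes the counts that moved by over 1.5 times lay between 347 and 3242 under the fold rule, between 367 and 9922 with the cell number table and between 508 and 3641 without the lowest 25% of genes. Same-numbered libraries did not deviate together (correlations from −0.361 to 0.071, 0 of 18 over 0.1), and with a replicate block 27 pathway genes were higher and 19 lower between PGCs and no call of a member changed. Levels near 1 read, as for Cdx2 in the male libraries, are limited by depth.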

Other observations

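Cdx1, a caudal-type homeobox gene like Cdx2, held 11.4, 7.75 and 10.2 CPM in female PGCs and 0.526, 0.984 and 2.43 CPM in male PGCs. Female soma held at most 0.667 CPM. Of these groups only female PGCs passed 5.067 CPM, the lowest third-highest value of any gene. The log2 difference of 1.27 ± 0.16 between female and male PGCs is therefore given as a description, without a test. Id4 departed from Id1, Id2 and Id3, at 32.6, 42.6 and 41.2 CPM in female against 33.5, 20.2 and 30.2 CPM in male PGCs, and was not called (0.25 ± 0.16, adjusted p 0.184). It was higher in female PGCs than in female soma (1.05 ± 0.16, adjusted p 2.78e-05). Both genes were named after their values were seen.

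The BMP-responsive factors Hand1, Hand2 and Gata3 varied between the female soma libraries. Hand1 held 25.1, 33.1 and 0.763 CPM in replicates 1, 2 and 3, and 5.82, 2.01 and 11.1 CPM in female PGCs. Hand2 held 80.7, 109 and 35.1 CPM in female soma, with at most 0.155 CPM in female PGCs. Gata3 held 15.6, 28.5 and 6.99 CPM in female soma and 8.77, 6.51 and 10.9 CPM in female PGCs. Replicate 3, the library with the lowest germ cell marker sum, was the lowest of the 3 for each gene. Hand1 and Gata3 were higher in replicates 1 and 2 than in female PGCs on average, and Hand2 was nearly unread in female PGCs. Replicate 3 also held more mesonephros and coelomic epithelium markers (167.7 CPM against 89.6 and 103.9 in replicates 1 and 2). It held fewer red cell markers (17460 against 29330 and 26960) and macrophage markers (150.8 against 187.8 and 245.5). The part of any of these markers in the levels of the 3 genes was not tested.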
